A study of Drosophila melanogaster with 24 samples.

Results

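The heads of mock trained male fruit flies (Drosophila melanogaster) that were handled for a long schedule were compared with those of mock trained males handled for a short one. Mock trained males are the controls of a male courtship suppression experiment: they go through the handling but meet no female. The comparison rests on 12 of the 24 flies of the series, chosen by their labels as 6 flies of the 3X mock group and 6 flies of the 1X mock group. The other 12 flies were trained, with an unreceptive female present, and serve here to look at the schedule difference in flies that the mock comparison did not use.

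All flies were virgin males, housed alone before training according to the study's methods. They were kept at 25 °C with 12 h of light and 12 h of dark. The strain and the hour at which training began were not given in the sources used here. 1X mock flies went through 1 session of 2 h. 3X mock flies went through 3 such sessions with gaps of 30 min, so that their handling lasted 7 h. Heads were taken 1 h after the end in both groups, one head per library, and each replicate is therefore a separate fly. If both schedules began at the same hour, the 3X heads were collected 5 h later in the day. The length of handling, the time spent in the training set-up and the hour of the day cannot be told apart in this design.

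The circadian clock of the fly is a loop of transcription. The proteins CLK and CYC switch on per, tim, vri, Pdp1 and cwo, and the proteins PER and TIM later enter the nucleus and stop their own transcription. VRI represses and PDP1 activates the Clk gene, CRY is the blue light receptor that makes TIM break down in light, and in the fly head the mRNAs of this loop rise and fall in most photoreceptors and in many glial and fat body cells. The mRNAs of per, tim and vri are low in the morning and high in the evening under light and dark cycles, and that of Clk runs in the opposite phase.

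Expression was measured as RPKM, reads per kilobase of transcript scaled to the size of the library. Whole reads could be recovered from these values, and the 12 libraries held 24705573 to 41440179 of them. The 3X mock libraries were smaller, with a mean of 32693401 ± 4680910 reads against 37360557 ± 2353343 in 1X mock (SD, n = 6 each, exact two-sided permutation p 0.0411). Within groups the correlation of log2 values across genes was 0.976 to 0.993. The summed RPKM of 5 neuronal markers was 373 to 420.4 in 1X mock, against 376 to 402 in 3X mock, and that of 4 photoreceptor markers was 21836 to 26425 and 24104 to 26363. One library stood apart: the summed RPKM of 15 testis markers was 121.6 in 3X mock replicate 6 and 6.39 to 9.15 in the other 11 mock flies. The count of called genes and the list counts in mock flies were also computed without this fly.

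The test with limma on log2(RPKM + 1) took in each gene that reached 1 RPKM in 6 or more of the 12 flies, and a gene was called when its Benjamini-Hochberg adjusted p was below 0.05. Of 10241 genes tested, 668 were called, or 6.52%. An unadjusted p below 0.05 by limma was reached by 2116 of the genes tested. There were 282 genes higher in 3X mock (2.75%) and 386 lower (3.77%). Most differences were small. The median size over the called genes was 0.32 on the log2 scale, and 27 genes (0.264%) differed by at least 1, 11 of them higher and 16 lower. Of the called genes, 403 had 6 flies of one group all above the 6 of the other, while 449 of all tested genes did so (4.38%, 1.86% with all 3X flies above and 2.53% with all below). Without 3X mock replicate 6 there were 509 calls, and without 3X mock replicate 5, the shallowest library, there were 472. In bulk RNA of whole heads, fewer cells of a type and less RNA per cell cannot be told apart.

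**Figure D1:**
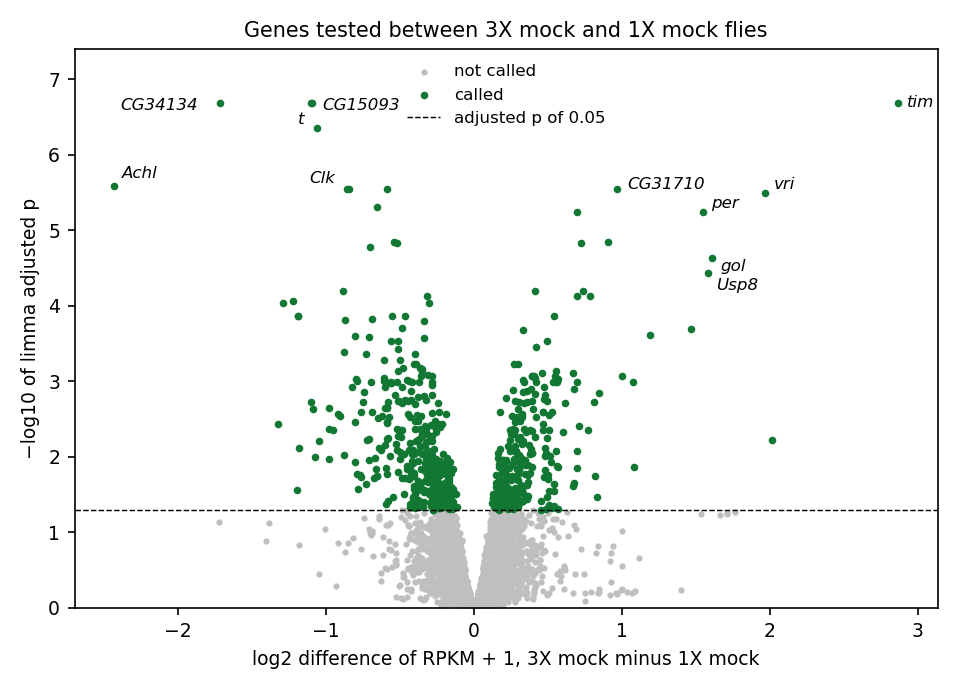
Each point is 1 of the 10241 genes tested, with the log2 difference of RPKM + 1 (3X mock minus 1X mock) on the horizontal axis and −log10 of the limma adjusted p on the vertical axis; green points lie above the dashed line at an adjusted p of 0.05. The gene tim lies farthest to the right at 2.87 and Achl farthest to the left at -2.43.

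Of the 8 core clock genes, tim, vri, per, cwo and Pdp1 were higher in 3X mock, Clk and cry were lower, and cyc did not pass the test. The median log2 difference of the 8 genes was 0.72, against 0.01 over all genes tested. Of the 8, 7 were called (87.5%, against 6.52% of all genes). These genes were chosen with earlier results of the same flies known, so the count describes them and does not test them as a group. The 7 calls stood in every alternative fit and without any single fly.

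The gene tim (FBgn0014396, chromosome 2L, 3493986 to 3508119 on dm6) encodes the partner of PER that light removes. Its RPKM was 10.7 at the lowest, 12.6 at the median and 21.8 at the highest in 1X mock, and 101.1, 107 and 128 in 3X mock. The groups lay far apart, and the lowest 3X fly was well above the highest 1X fly. The ratio of the group means was 7.52, with a log2 difference of 2.87 ± 0.15 (SE, with an adjusted p of 2.07e-07 by limma). The bZIP repressor of Clk is vri (FBgn0016076), which lies at 5288944 to 5311223 on chromosome 2L. Its RPKM was 10.6, 13.1 and 20.4 in 1X mock and 52.7, 58.2 and 65.4 in 3X mock. The ratio of means was 4.00 and the log2 difference 1.97 ± 0.14 (SE, with an adjusted p of 3.22e-06 by limma). The gene per (FBgn0003068, chromosome X, 2685580 to 2692780) had 4.44, 5.18 and 7.71 RPKM in 1X mock, against 15.4, 18.6 and 20.6 RPKM in 3X mock. Its groups did not overlap either, with a ratio of means of 3.21 and a log2 difference of 1.55 ± 0.12 (SE, with an adjusted p of 5.79e-06 by limma).

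Inside the 1X mock group replicates 1 and 6 were high for all 3 genes. They had 21.8 and 18.5 RPKM of tim, where the other 4 flies had 10.7 to 13.2. They had 7.71 and 7.32 RPKM of per, against 4.44 to 5.54 in the others, and 20.4 and 19.7 RPKM of vri, against 10.6 to 13.8. The same 2 flies were the highest of their group for Usp8, gol, Slob, Crg-1 and CG31710, which are described below. Over the 282 higher genes, replicate 6 was the highest 1X mock fly in 28.0% and replicate 1 in 20.9%, against 15.0% and 12.6% over all genes tested. Replicates 2 and 3 were each the highest 1X mock fly in 17.7% of the higher genes, against 22.3% and 18.7% over all genes tested. The higher genes were called from these same flies, so the shares are a description. No label sets replicates 1 and 6 apart.

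The other activators and repressors of the loop differed by less. Pdp1 (FBgn0016694, chromosome 3L, 7811458 to 7867369) measured 16.5 to 20.1 RPKM in 1X mock, against 27.4 to 31.5 in 3X mock, a log2 difference of 0.70 ± 0.05 (SE). The repressor cwo (FBgn0259938, chromosome 3R, 10388258 to 10400752) measured 6.13 to 9.04 and 12.0 to 14.4 RPKM, a log2 difference of 0.74 ± 0.07 (SE). Both were higher in every 3X fly than in any 1X fly. Clk (FBgn0023076, chromosome 3L, 7763233 to 7775603) ran the other way: its RPKM was 10.9, 12.8 and 14.0 in 1X mock and 6.07, 6.50 and 7.33 in 3X mock. The 1X mean was 1.94 times the 3X mean, and Clk was lower in 3X by 0.86 ± 0.06 on the log2 scale (SE, with an adjusted p of 2.81e-06 by limma). The light receptor cry (FBgn0025680, chromosome 3R, 19212154 to 19215442) had 121 to 139 RPKM in 1X mock, against 95.8 to 114 in 3X mock, again without overlap, and its log2 difference was -0.32 ± 0.05 (SE, with an adjusted p of 0.00178 by limma). The partner of CLK, cyc (FBgn0023094, chromosome 3L, 19813770 to 19815938), had a median of 20.2 RPKM in both groups, and the 95% interval of its log2 difference ran from -0.09 to 0.08.

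**Figure D2:**
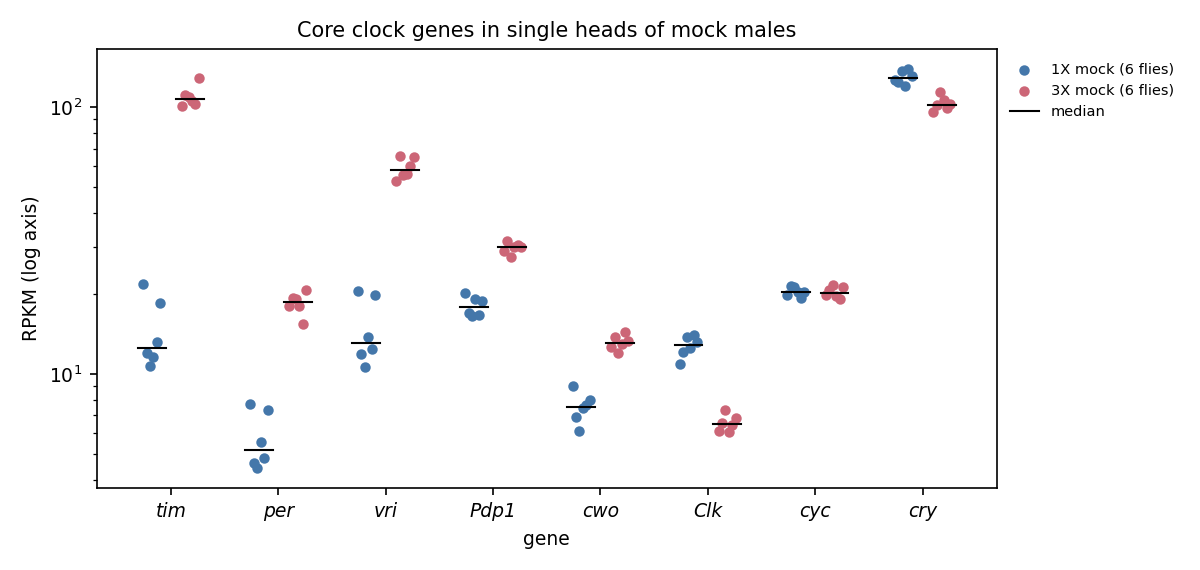
RPKM of the 8 core clock genes in each of the 12 mock flies on a log axis, with 1X mock in blue, 3X mock in red and the group median as a bar. The groups are separate in every gene but cyc, and 2 of the 1X mock flies lie above the other 4 in tim, per and vri.

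The genes with the smallest p outside the loop included several that are known to follow the clock in fly heads. Besides tim, vri, per, Pdp1 and cwo, the 12 with the smallest p among the higher genes were CG31710, CG2681, Crg-1, gol, Usp8, oys and Slob. Usp8, a deubiquitinase that acts on CLK in the fly, had 16.4, 22.8 and 36.2 RPKM in 1X mock and 69.6, 72.9 and 82.1 in 3X mock (log2 difference 1.58 ± 0.15, SE). The gene gol, a RING finger ubiquitin ligase, had 12.4, 14.2 and 24.2 RPKM and 43.1, 50.2 and 57.8 RPKM (log2 difference 1.61 ± 0.14, SE). These groups did not overlap. Slob, which binds the Slowpoke potassium channel, measured 31.8 to 44.4 RPKM in 1X mock, against 64.1 to 68.4 in 3X mock, and Crg-1, a fork head factor named for its circadian regulation, 11.7 to 15.1 and 20.3 to 22.9 RPKM. CG31710 and CG2681 were higher with ratios of the means of 2.08 and 1.99. The acyltransferase oys differed least of the 12, by 0.41 ± 0.04 on the log2 scale (SE), but its flies were so close within groups that they did not overlap. The genes gol and oys overlap other genes on the opposite strand, as do tim, per, vri, CG31710, Crg-1 and Slob, and the libraries were not stranded.

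The genes with the smallest p in the other direction spanned many functions. Achl (FBgn0033936, chromosome 2R, 14420324 to 14424764), known in the fly as a clock-controlled gene that holds down immune genes, differed most among the lower genes. Its RPKM was 5.23, 8.73 and 10.7 in 1X mock and 0.259, 0.765 and 1.28 in 3X mock, so that the 1X mean was 11.2 times the 3X mean. The 3X median lay under the filter's 1 RPKM, so the ratio rests on a low 3X mean. The log2 difference of -2.43 ± 0.16 (SE, with an adjusted p of 2.59e-06 by limma) is on RPKM + 1 and therefore smaller than this ratio. CG34134 (FBgn0083970, chromosome 2L, 8190297 to 8190781) fell from 32.3, 39.2 and 45.5 RPKM to 9.58, 11.0 and 13.2 RPKM, a log2 difference of -1.71 ± 0.09 (SE, with an adjusted p of 2.07e-07 by limma). The gene t (FBgn0086367, chromosome X, 9217655 to 9223257) encodes the hydrolase that frees histamine and dopamine from their beta-alanine conjugates. It had 37.3, 41.9 and 48.4 RPKM in 1X mock, against 17.5, 19.8 and 21.3 RPKM in 3X mock (log2 difference -1.06 ± 0.06, SE, with an adjusted p of 4.44e-07 by limma). In all 3 genes every 3X fly was below every 1X fly.

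Some of the lower genes cannot be counted as separate. CG15093 and the antisense gene asRNA:CR43964 cover the same stretch of chromosome 2R on opposite strands, gave read numbers within 5% of each other, and had the same log2 difference of -1.10 ± 0.06 (SE). CG44195, Ank2 and CG32373 overlap on chromosome 3L between 7650548 and 7759123, next to Clk, and were lower by 0.84, 0.65 and 0.52 on the log2 scale. Ank2 is a neuronal ankyrin. The remaining genes of the 12 were Clk, Chd64, a calponin family gene (log2 difference -0.59), GstZ2 (-0.54) and CG12825 (-0.70). CG12825 lost its call in the fit of all 24 flies (limma adjusted p 0.0687, from 5.42e-06 to 0.0687 over its alternatives).

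A further 4 genes among the 27 largest are named here after their values were seen. Cipc, whose mammalian counterpart inhibits CLOCK, went from a mean of 10.7 RPKM in 1X mock to 25.5 RPKM in 3X mock (log2 difference 1.19 ± 0.14, SE, with an adjusted p of 2.40e-04 by limma). CG11529 went from 10.4 to 30.0 RPKM (log2 difference 1.47 ± 0.17, SE) and CG11741 from 5.35 to 22.1 RPKM (2.02 ± 0.38, SE). CG8665 went from 59.4 to 23.9 RPKM (-1.29 ± 0.13, SE).

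Of 19 tested modifiers of clock proteins, such as kinases, phosphatases and ubiquitin ligases, 3 were higher (15.8%, against 2.75% of all genes) and none lower (median log2 difference 0.00). They were Usp8, the phosphatase 2A subunit tws that acts on PER (18.3 to 22.5 RPKM against 23.3 to 28.2, log2 difference 0.34) and the F-box gene Fbxl4 (17.6 to 21.1 against 21.4 to 24.6, log2 difference 0.24). Neither dco (doubletime) nor sgg, the kinases of PER and TIM, was called. Of 7 known clock outputs in the head, Slob and Cyp4d21 were higher and Ugt35B1 was lower (42.9% called, against 6.52% of all genes). Cyp4d21, a cytochrome P450 with male-biased expression, had 66.9, 179 and 246 RPKM in 1X mock and 317, 348 and 374 in 3X mock. Its groups did not overlap, and the low value of 66.9 belonged to 1X mock replicate 4. Among 15 clock neuropeptides and receptors limma called none (0%, against 6.52% of all genes), and none had an unadjusted p below 0.05. The listed neuropeptide gene CNMa was too low for the filter and was not among these 15. It had 0.105 to 0.362 RPKM in 1X mock, against 0.577 to 1.59 in 3X mock, without overlap. Among 17 sleep regulators limma called none (0%, against 6.52% of all genes), and 2 had an unadjusted p below 0.05. In lists this short a count of 0 is near the share over all genes. The count with voom on the recovered reads was 0 in both lists, and no alternative fit called more than 1 gene in either.

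**Figure D3:**
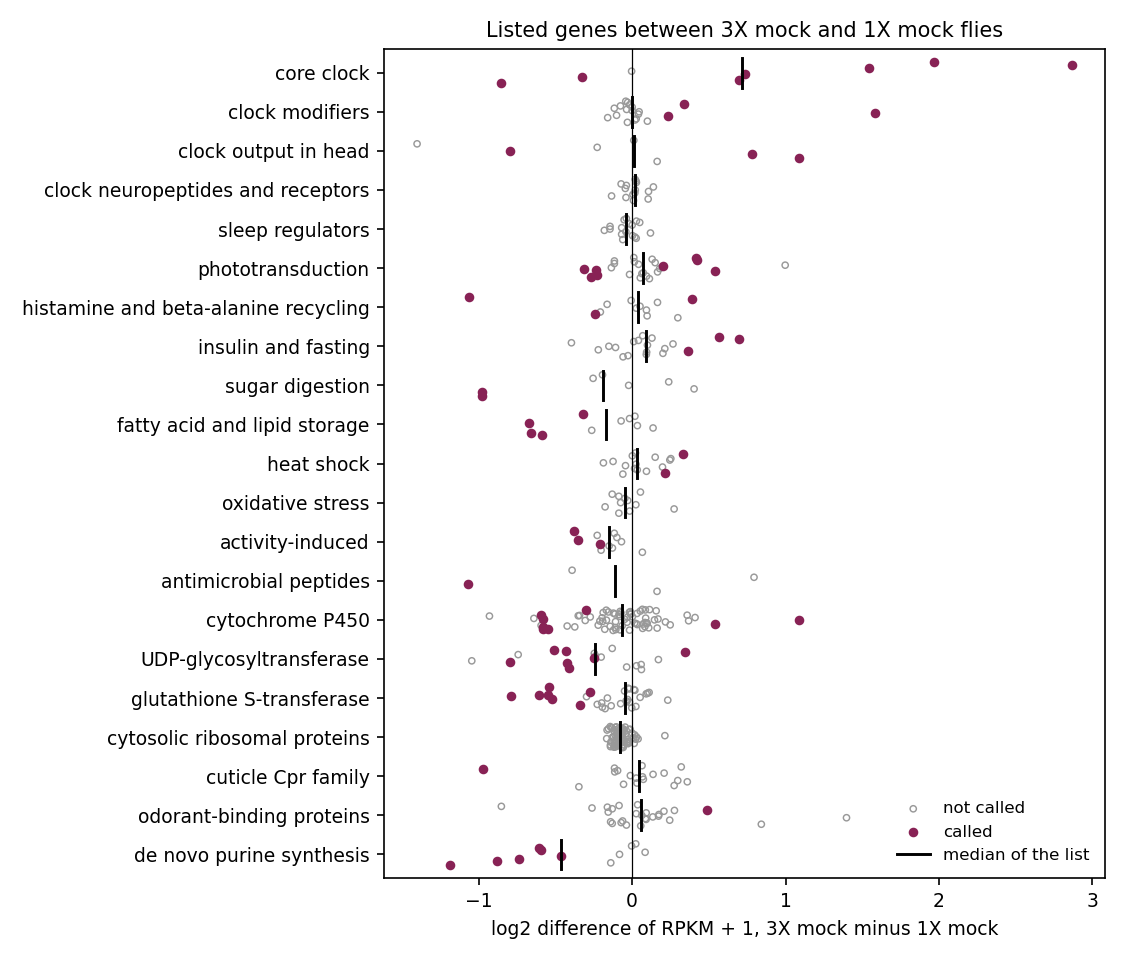
Each point is a tested gene of a list, placed at its log2 difference of RPKM + 1 (3X mock minus 1X mock), filled when called at an adjusted p below 0.05, and the bar is the median of the list. Core clock genes reach from -0.86 to 2.87, and called genes of lipid storage, sugar digestion, glutathione S-transferases and purine synthesis lie to the left of 0.

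In the eye, phototransduction genes moved in both directions. Of 26 tested, 4 were higher (15.4%, against 2.75% of all genes) and 4 lower (15.4%, against 3.77%), with a median of 0.07. Rh6, the green opsin of a subset of R8 photoreceptors, had 593 to 676 RPKM in 1X mock, against 808 to 1140.4 in 3X mock (log2 difference 0.54 ± 0.08, SE). The rhodopsin phosphatase rdgC was higher by 0.42, the light-gated channel trp by 0.41 and the myosin ninaC by 0.20. Lower were the scaffold inaD (-0.32), the CDP-diacylglycerol synthase Cds (-0.27), the eye protein kinase C inaC (-0.24) and the eye G protein subunit Gbeta76C (-0.23). Rh6, rdgC and trp did not overlap between the groups. The summed photoreceptor markers overlapped, as given above, although chp and ninaC among them were called higher, and their part in these differences was not tested. Without 3X mock replicate 6 the counts were 3 higher and 2 lower. The call of ninaC was lost in 8 of the 12 fits that left out 1 fly, and after quantile normalization all 4 lower calls were lost, that of Cds with a limma adjusted p of 0.0515.

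Histamine is the transmitter of fly photoreceptors, and glia return it to them bound to beta-alanine. Of 12 tested genes of this cycle, t and the carcinine transporter CarT were lower (16.7%, against 3.77% of all genes). The gene su(r) was higher (8.33%, against 2.75% of all genes). CarT overlapped between the groups, with a log2 difference of -0.24, and its call was lost in 11 of the 12 fits that left out 1 fly (limma adjusted p up to 0.0975). The gene su(r) encodes the first enzyme that degrades uracil towards beta-alanine. It had 9.65, 12.0 and 14.2 RPKM in 1X mock, against 15.2, 15.5 and 17.4 RPKM in 3X mock, without overlap (log2 difference 0.39 ± 0.08, SE, with an adjusted p of 0.00890 by limma). In the fit of all 24 flies it missed the threshold (adjusted p 0.0520, from 0.00324 to 0.0520 over its alternatives).

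Both amylase genes, which encode starch-digesting enzymes, fell: Amy-d had 112, 125 and 156 RPKM in 1X mock and 37.1, 68.0 and 83.9 in 3X mock, and Amy-p had 101.4, 110.5 and 138 RPKM against 30.6, 63.8 and 71.2. The ratio of 1X to 3X means was 1.94 for Amy-d and 1.93 for Amy-p. In the fit of all 24 flies the call of Amy-p was lost (adjusted p 0.0824). They are near-identical copies, and how reads that match both were counted was not tested, so the split between them is uncertain. They were the 2 called of 7 tested genes of sugar digestion (28.6% lower, against 3.77% of all genes), and the other 5 were not called. In both Amy-d and Amy-p 3X mock replicate 5 was the lowest fly. This was not particular to the amylases. Over the 386 lower genes replicate 5 was the lowest 3X mock fly in 37.6%, against 18.2% over all genes tested. It was the highest 3X mock fly in 28.7% of the 282 higher genes, against 18.9%. The genes were called from these same flies, so the shares are a description.

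Of 10 tested genes of fatty acid synthesis and lipid storage, 4 were lower and none higher (40.0% lower, against 3.77% of all genes), while the other 6 were not called. ACC, which makes malonyl-CoA, had 67.4, 77.7 and 95.3 RPKM in 1X mock and 43.9, 53.2 and 59.3 in 3X mock (log2 difference -0.59 ± 0.09, SE, with an adjusted p of 0.00223 by limma). ATPCL, which supplies acetyl-CoA from citrate, differed by -0.66, the perilipin Lsd-1 by -0.67 and mdy, which makes triglyceride, by -0.32. ACC and mdy did not overlap between the groups, whereas ATPCL and Lsd-1 did. In the fit of all 24 flies the calls of Lsd-1 and mdy were lost (adjusted p 0.134 and 0.0903). The summed RPKM of 4 fat body markers was 4566 to 9435 in 1X mock, against 2987 to 7102 in 3X mock, so the ranges overlapped with a lower median in 3X mock (4797 against 6452). Of these markers 3 were tested, and their log2 differences went both ways, from -0.44 to 0.20. The 1 marker called was mdy, which belongs to both lists. The part of the markers in the lower lipid genes was not tested.

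Among 19 insulin and fasting genes 3 were higher (15.8%, against 2.75% of all genes). The activin-like ligand daw had 10.1, 11.3 and 17.3 RPKM in 1X mock and 16.8, 20.5 and 25.0 in 3X mock (log2 difference 0.69 ± 0.14, SE, with an adjusted p of 0.00825 by limma), with a slight overlap. Ilp6, the insulin-like peptide of the fat body that is known to rise in fasting, differed by 0.36, and the transcription factor sug by 0.57. In the fit of all 24 flies daw was the 1 gene still called, and Ilp6 missed the threshold (adjusted p 0.0570). The call of sug was lost in 8 of 12 alternative fits and in 9 of 12 that left out 1 fly (limma adjusted p 0.0244 to 0.398).

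De novo purine synthesis is listed here after the values were seen, because Adsl stood among the 27 largest differences. All 11 genes were tested, 6 were lower (54.5%, against 3.77% of all genes) and none was higher, with a median log2 difference of -0.47. The lower ones run through the pathway to IMP: Prps makes its sugar phosphate donor, Prat2 takes the first committed step, Gart and Paics carry several of the next, and Adsl and CG11089 act at its end. CG11089 had 96.7, 104 and 113 RPKM in 1X mock and 45.1, 57.5 and 65.6 in 3X mock (log2 difference -0.88 ± 0.09, SE, with an adjusted p of 6.38e-05 by limma). Adsl had 39.9, 56.2 and 66.6 RPKM against 19.7, 22.9 and 32.2, with a log2 difference of -1.19 ± 0.13 (SE). Neither gene overlapped between the groups, and Adsl shares its reads with Pxd on the other strand. Gart differed by -0.74, Prps by -0.60 and Paics by -0.47, all without overlap.

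Prat2 overlapped (61.4 to 113 RPKM in 3X mock, 96.8 to 169 in 1X mock), and its call was lost in 9 of the 12 fits that left out 1 fly. The paralog Prat, at 4.19 to 6.18 RPKM over all 12 flies, had a log2 difference of 0.08. Pfas (-0.08) was not called, nor were the branches after IMP: Adss (-0.14) towards AMP, and ras (0.02) and bur (0.00) towards GMP.

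**Figure D4:**
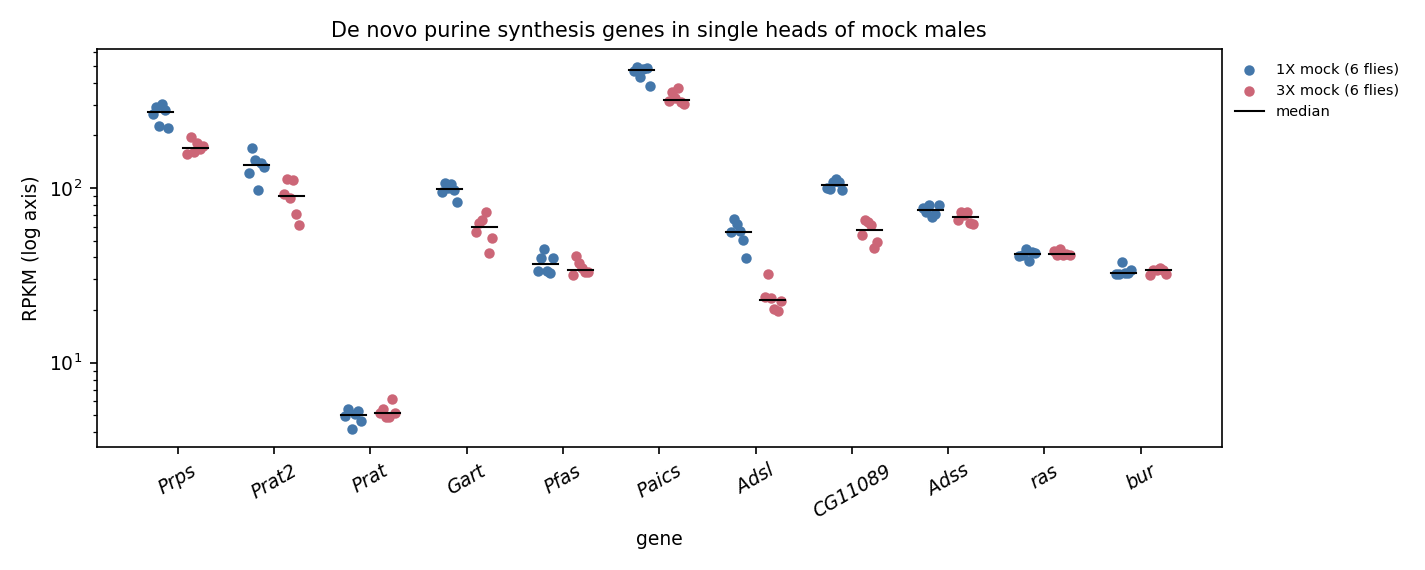
RPKM of 11 purine synthesis genes in each of the 12 mock flies on a log axis, in order of the pathway, with 1X mock in blue, 3X mock in red and the group median as a bar. Prps, Gart, Paics, Adsl and CG11089 are separate between the groups, while Prat, Pfas, ras and bur lie at nearly the same level in both.

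Enzymes that conjugate and oxidise small molecules were mostly lower where they were called. Of 31 tested glutathione S-transferases 7 were lower and none higher (22.6% lower, against 3.77% of all genes). GstE9 had 540.4, 612 and 656 RPKM in 1X mock and 379, 411 and 449 in 3X mock (log2 difference -0.55 ± 0.06, SE, with an adjusted p of 1.36e-04 by limma). GstE7, GstE8 and GstE3 of the same cluster on chromosome 2R differed by -0.79, -0.61 and -0.52, and GstZ2, GstD8 and GstS1 were the others. Of 18 UDP-glycosyltransferases 6 were lower (33.3%) and 1 higher (5.56%, against 2.75% of all genes). Ugt35B1 had 99.6, 136 and 165 RPKM against 65.3, 75.2 and 89.9, and Ugt37D1 was the one that was higher (0.34). Of 73 cytochrome P450 genes 6 were lower (8.22%) and 2 higher (2.74%, as over all genes), with Cyp4e2 at 92.0 to 118 RPKM in 1X mock, against 55.3 to 82.9 in 3X mock. Cyp12d1-p and Cyp12d1-d, both called lower, are near-identical copies. Without 3X mock replicate 6 the lower counts were 5, 4 and 3 in these 3 families, and in the fit of all 24 flies 4, 5 and 2. The fat body ranges above stand beside them, and their part was not tested.

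Of 16 tested heat shock genes, which encode protein chaperones, Hsp83 (0.33) and Hsc70-3 (0.21) were higher (12.5%, against 2.75% of all genes), and neither was called without 1X mock replicate 4 or 6 or without 3X mock replicate 1, 3, 5 or 6. None of 11 oxidative stress genes was called by limma (0%, against 6.52% of all genes) or by voom, and 3 had an unadjusted p below 0.05. In a list this short a count of 0 is near the share over all genes. Of 11 activity-induced genes, sr, Hr38 and CrebA were lower by 0.38, 0.35 and 0.21 (27.3%, against 3.77% of all genes), and none of them was called without 1X mock replicate 1, without 3X mock replicate 3 or without a filter on low values. Of 4 tested antimicrobial peptides AttC was the 1 called, and lower (25.0%, against 3.77% of all genes). It had 9.32 to 19.7 RPKM in 1X mock and 3.13 to 8.77 in 3X mock (log2 difference -1.07 ± 0.22, SE, with an adjusted p of 0.00999 by limma). In the fit of all 24 flies this call was lost (limma adjusted p 0.313).

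Structural families served as a contrast. None of 80 ribosomal protein genes was called by limma (0%, against 6.52% of all genes) or by voom, and their log2 differences lay between -0.17 and 0.21. Of them 20 had an unadjusted p below 0.05 by limma, as did 2116 of all 10241 genes tested. Of 18 cuticle genes Cpr72Ec was lower (-0.98), a share of 5.56%, against 3.77% of all genes. Of 27 odorant-binding protein genes Obp83g was higher (0.49), a share of 3.70%, against 2.75% of all genes. Both shares were near those over all genes, and the call of Obp83g was lost in 10 of the 12 fits that left out 1 fly.

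The trained flies were then used to see the schedule difference in other flies. No fly is shared between the comparisons. Between 3X trained and 1X trained flies 571 of the 10241 genes were called (5.58%), 315 higher (3.08%) and 256 lower (2.50%) in 3X. After quantile normalization the split was 259 higher and 320 lower. Of the 668 genes called in mock flies, 557 had the same sign in trained flies (83.4%), against 62.4% of all genes tested. Among the higher genes the share was 88.3% and among the lower 79.8%. Called in both were 186 genes, or 27.8% of the mock calls and 32.6% of the trained calls, and 185 of them had the same sign.

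The core clock kept its pattern in trained flies. The log2 difference was 3.10 for tim, 2.02 for vri, 1.69 for per, 0.79 for Pdp1, 0.65 for cwo and -0.95 for Clk, all called, while cry (-0.26) missed the threshold (limma adjusted p 0.0799) and cyc stood at 0.00. Of the 12 higher genes with the smallest p in mock flies 11 were also called in trained flies, and oys was the exception (0.14, adjusted p 0.0942). Of the 12 lower genes 9 were, and the exceptions were CG15093 with asRNA:CR43964 (-0.46) and CG12825 (0.24). Achl differed by -2.67 and CG34134 by -1.68. In purine synthesis CG11089 (-0.98), Gart (-0.82), Paics (-0.69), Prps (-0.53) and Adsl were called lower in trained flies too. Prat2 was not (-0.64, limma adjusted p 0.168), while Pfas, not called in mock flies, was called lower (-0.50, limma adjusted p 0.0452). The lipid genes were not called in trained flies: ACC differed by -0.10, ATPCL by -0.02, Lsd-1 by -0.12 and mdy by -0.09. Of the heat shock and activity-induced genes called in mock flies, Hsp83 (0.52), Hsc70-3 (0.44), Hr38 (-0.50) and sr (-0.43) were called in trained flies. CrebA (-0.04) was not.

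Whether the schedule difference was another one with a female was tested as an interaction over all 24 flies. The test passed for 18 genes (0.176%), 10 with a more positive and 8 with a more negative difference in trained flies, and 1207 genes had an unadjusted p below 0.05. None of the listed core clock, lipid or purine genes passed (smallest adjusted p 0.673, 0.292 and 0.293), so the lipid genes are not shown to differ between mock and trained flies. The 3 genes with the smallest p were higher after the long schedule in mock flies and not in trained ones. For slow the log2 difference was 0.42 in mock and -0.17 in trained flies, for su(r) 0.39 and -0.77 (called lower in trained flies, limma adjusted p 0.00668), and for FBgn0025687, which has no symbol in the gene-name table, 1.08 and -0.51. In mock flies slow had 5.67, 6.14 and 6.66 RPKM after 1X and 7.56, 8.62 and 9.15 after 3X. FBgn0025687 had 1.81, 2.12 and 3.91 RPKM and 4.65, 6.85 and 7.36 RPKM. Neither gene overlapped between the mock groups. The mean RPKM of su(r) was 11.9 in mock and 28.8 in trained flies after 1X, and 15.8 and 16.8 after 3X. For slow the mock and trained means were 6.14 and 8.67 after 1X, and 8.53 and 7.61 after 3X. For FBgn0025687 they were 2.54 and 7.75 after 1X, and 6.36 and 5.13 after 3X. In all 3 genes the mock and trained means thus lay farther apart after 1X than after 3X. The others that passed included Srr, which was lower by 0.87 in 3X mock and differed by 0.32 in trained flies (interaction adjusted p 0.0337).

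**Figure D5:**
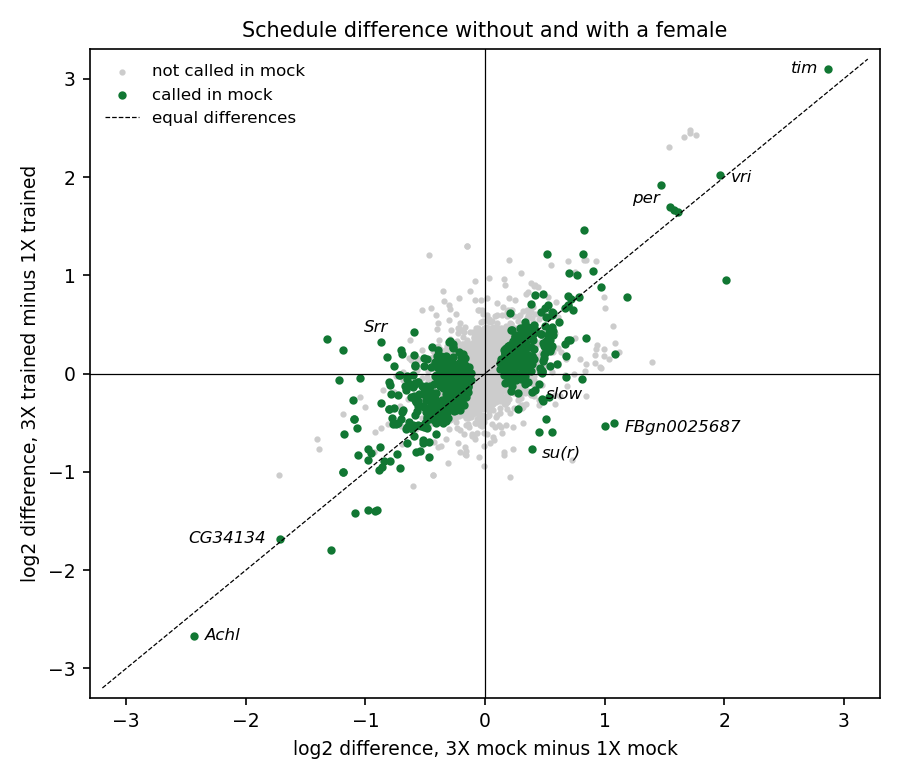
Each point is 1 of 10241 genes, with its log2 difference of RPKM + 1 for 3X mock minus 1X mock on the horizontal axis and for 3X trained minus 1X trained on the vertical axis; green marks the 668 genes called in mock flies and the dashed line equal differences. The genes tim, vri, per, Achl and CG34134 lie near the line, and su(r), slow and FBgn0025687 lie below 0 on the vertical axis.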

How the data were processed

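Single-head poly(A) RNA libraries (non-stranded, SMART-Seq v4) had been sequenced by the authors, who deposited RPKM values for 17559 genes in 24 flies. The submitters' processing notes name bcl2fastq 2.18, TopHat2 2.0.13, edgeR 3.18.1 and dm6, whereas the study's mRNA-Seq methods name an older TopHat, dm3 and cuffdiff. Which of these made the deposited RPKM is not given in the sources used here. Gene IDs were used as given (17253 had a symbol), and their coordinates were read from an Ensembl annotation of BDGP6, which is dm6. With exonic lengths, and fitted lengths for 708 genes, the deposited RPKM values gave whole reads within 0.02 for all 16992 genes above 0. The libraries carried no molecular identifiers that the sources used here name.

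Values were tested as log2(RPKM + 1) with limma 3.58.1 (R 4.3.3, eBayes with trend, two-sided), which understates changes of low genes. The mock comparison used the 12 mock flies and genes with RPKM of at least 1 in at least 6 of them. Its genes were then tested in the 12 trained flies and, for the interaction, in all 24. The code was tested on simulated data. The members and gene lists were chosen with earlier results of these data known. The purine list and the genes said to be named after their values were seen were added later. Named genes were tim, per and vri, the rest of the core clock, the 12 called genes of smallest p in each direction, up to 4 called members of each other list with the smallest p, and the 3 genes with the smallest p for the interaction. Genes named beside these are members of a list whose count is given, or overlap a named gene. Alternatives were pseudocounts of 0.1 and 0.5, other filters, median-ratio and quantile scaling, sample weights, voom on the recovered reads, one fit over 24 flies, a replicate block and leaving out each fly. Listed genes that did not match the table were not analysed here, and promoter and protein sequences were not used here. The other steps ran in Python 3.11.15 with scipy 1.17.1, pandas 2.3.3, numpy 2.4.6, and figures were drawn with matplotlib 3.10.9.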

Additional observations from a re-analysis of the deposited data

Results flagged for a closer look

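Among 178 groups of 6 mock flies examined (the named genes, library sizes and summed markers), 15 held a fly whose gap to its nearest neighbour took more of the group's range than Dixon's limit, and chance alone gives about 8.9. The clearest was the summed RPKM of the testis markers in 3X mock, where replicate 6 stood at 121.6 and the next fly at 9.15, with a gap of 0.976 of the range. This library also had 108 genes at 1 RPKM or more that stayed under 0.2 in the other 23 flies, against at most 9 for any other library. The yolk protein markers had a high fly in each group, 3X mock replicate 1 (50.96 summed RPKM, gap 0.654) and 1X mock replicate 6 (23.95, gap 0.646), and the glial markers a low one, 3X mock replicate 1 (gap 0.640).

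In single genes the gap is a share of the range on log2(RPKM + 1). In 1X mock a fly stood apart for Cyp4d21 (replicate 4 low, 0.711), CarT (replicate 2 low, 0.698), Ugt37D1 (replicate 6 low, 0.671), bur (replicate 3 high, 0.662), Chd64 (replicate 2 high, 0.642) and Cyp4e2 (replicate 3 high, 0.629). In 3X mock this held for CarT (replicate 4 low, 0.803), Amy-p and Amy-d (replicate 5 low, 0.674 and 0.656), su(r) (replicate 5 high, 0.639) and Adsl (replicate 2 high, 0.633).

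The schedule difference was another one in trained than in mock flies by the interaction test for slow, with a difference of -0.59 ± 0.08 on the log2 scale (SE, with an adjusted p of 0.00105 by limma), for su(r), with -1.16 ± 0.16 (SE, with an adjusted p of 0.00139 by limma), and for FBgn0025687, with -1.58 ± 0.26 (SE, with an adjusted p of 0.0110 by limma).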

How the results depend on the processing

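The count of 668 calls in mock flies stayed between 456 (one fit over 24 flies, 418 genes shared with the 668) and 685 (voom on recovered reads), and between 472 and 592 when 1 fly was left out. Of 72 named genes called, 50 stayed called in every alternative, and the 22 others lost their call in at least 1, 16 of them in the fit over 24 flies. The trained count of 571 went to 1137 with sample quality weights and the interaction count of 18 to 121, and the cause was not tested. The 449 genes without overlap between the mock groups became 417 to 465 under median-ratio scaling, no filter or a minimum of 5 RPKM, which were chosen after seeing the data. None of the 72 named genes called changed sign in these fits. Of the genes that were not called, cyc turned to 0.0111 with sample weights, and bur to 0.00164 with weights and 0.00487 after quantile normalization. With 1 fly left out cyc ran from -0.0215 to 0.0133, bur from -0.0153 to 0.0296 and ras from -0.00146 to 0.0421.

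Same-numbered flies of the 2 mock groups showed little shared deviation (correlations of -0.018 to 0.125, and 1 of 6 flies correlated best with its own number). These values cannot tell whether same-numbered flies were handled or prepared together, and the labels do not say. With the replicate number as a block the mock count was 571 (476 shared), the trained count 335 and the interaction count 9.

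Schedule length and hour of collection were not varied separately, each group had 6 flies, and the 3X libraries were shallower. Genes that share reads with an overlapping gene could not be told apart in these libraries.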

Other observations

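A set of 5 genes, seen in the data and chosen for this, kept one ratio to each other in every fly while varying widely between flies. They are Ppr-Y, kl-5, ORY and CCY on the Y chromosome and Pzl on 3R. Ppr-Y had 164, 280.4 and 471 RPKM at the lowest, median and highest in 1X mock and 397, 689 and 3316 RPKM in 3X mock, a 20.2-fold range over the 12 mock flies with overlapping groups. Over all 24 flies kl-5 was 7.18% to 8.19% of the Ppr-Y value, ORY 7.15% to 7.76%, CCY 1.67% to 2.09% and Pzl 27.5% to 32.3%. The lowest Pearson r of these 4 with Ppr-Y was 0.998 over the 24 flies on log2(RPKM + 1), and the highest r of any other tested gene was 0.902. The points share the depth and scaling of their libraries, and these r are given as a description.

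Of the other genes of the Y chromosome, kl-3, WDY and FDY were looked at and did not move in this way. Over the 24 flies kl-3 had 0.594 to 1.03 RPKM, WDY 2.77 to 4.30 and FDY 4.56 to 8.09. Further genes of this chromosome were not described here. In mock flies the 5 genes just missed the threshold, with log2 differences of 1.77 ± 0.50 for Ppr-Y and 1.54 ± 0.44 for CCY (SE, limma adjusted p 0.0532 and 0.0564). In trained flies they passed, with 2.42 for Ppr-Y (limma adjusted p 0.0168) and 2.31 for CCY (0.0122). The reads of the 5 genes together made up 0.0801% to 1.66% of a mock library. What they come from was not tested.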
